A study of Mus musculus with 2 samples.

Results

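The MAP kinase phosphatases are 10 genes of 1 family, Dusp1, Dusp2, Dusp4, Dusp5, Dusp6, Dusp7, Dusp8, Dusp9, Dusp10 and Dusp16, taken by gene symbol from the 23365 genes of the authors' table. All 10 were found. Their RNA was sequenced in mouse embryonic fibroblasts, connective tissue cells grown out of embryos, with 1 library from cells with TET1 and TET2 knocked out and 1 library from wild-type cells. TET1 and TET2 oxidize methylated cytosine in DNA, and the series title asks how they act on developmental genes. The strain, the passage, the number of embryos behind each culture and the way the knock-out was made are not stated in the labels used here.

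The table sets a condition B against a condition A, and neither name matches the label of a sample. Each ratio divides condition B by condition A, and no genotype is assigned to either. The level in each condition was not used here, so each gene has 1 level, the authors' mean normalized count over both conditions, and 1 ratio. With 1 library per genotype there is no replicate error, the authors' p-values compare the 2 libraries and not the genotypes, and fewer cells of a type cannot be told apart from less RNA per cell. A ratio is said below to meet the size rule when it is at least 2-fold in size (a log2 ratio of at least 1) at a mean of at least 50, and a gene is said to pass when the authors' adjusted p is under 0.1. The means in the table sum to 58127871, and the authors' deposited table gives the targeted genes Tet1 and Tet2 log2 ratios of -1.82 and -0.74 (adjusted p by DESeq of 0.851 and 1), and Tet3, not targeted, one of -0.63.

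MAP kinases (ERK, JNK and p38) are switched on when an upstream kinase phosphorylates a threonine and a tyrosine in the activation loop. The dual-specificity phosphatases of this family remove both phosphates and so switch the kinase off. Several of them are transcribed in response to the kinases they switch off, which makes a negative feedback loop. In fibroblasts the serum-induced members belong to the immediate early response. By location and substrate the family falls into 3 groups: 4 inducible nuclear enzymes (Dusp1, Dusp2, Dusp4 and Dusp5), 3 cytoplasmic enzymes that prefer ERK (Dusp6, Dusp7 and Dusp9), and 3 enzymes directed at JNK and p38 (Dusp8, Dusp10 and Dusp16).

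The inducible nuclear genes held every ratio of the family that met the size rule, 4 of 4, and they split in direction. Dusp4 and Dusp1 were higher in condition B, and Dusp2 and Dusp5 were lower. The other 6 genes did not meet it, but Dusp16 (-0.93), Dusp6 (0.85) and Dusp9 (-0.78) had log2 ratios close to the threshold. At a threshold of 1.5-fold these genes met it as well, so the pattern by group depends on the threshold. In the family as a whole 2 of 10 genes were higher and 2 of 10 lower by the size rule in condition B, against a background of 8.31% and 9.60% of the 12401 genes with a mean of at least 50. Each count rests on 2 genes, and neither the family against that background nor the groups of the family against each other were tested. The 10 log2 ratios ran between -4.83 and 3.78 with a median of -0.38, beside a median of -0.04 over all genes at that mean.

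The bases before the start of the inducible nuclear genes are shown, because these genes met the size rule. A link between these bases and the direction of a ratio was not tested. They are RefSeq sequences of build GRCm38.p6, which is not the authors' build (mm9). The table of promoters held 8 of the 10 members, and Dusp4 and Dusp9 are not shown. Each run is the 250 bases before the start on the gene's own strand: chr17:26508473-26508722 on the minus strand for Dusp1, chr2:127335909-127336158 on the plus strand for Dusp2 and chr19:53528895-53529144 on the plus strand for Dusp5. Capitals mark TGACG on either strand, the core of the cAMP response element that CREB and ATF factors are known to bind.
Dusp1: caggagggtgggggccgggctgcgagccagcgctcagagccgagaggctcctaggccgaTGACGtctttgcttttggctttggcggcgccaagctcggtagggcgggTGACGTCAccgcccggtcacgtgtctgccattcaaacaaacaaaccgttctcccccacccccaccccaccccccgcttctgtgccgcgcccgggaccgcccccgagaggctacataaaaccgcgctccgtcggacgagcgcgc
Dusp2: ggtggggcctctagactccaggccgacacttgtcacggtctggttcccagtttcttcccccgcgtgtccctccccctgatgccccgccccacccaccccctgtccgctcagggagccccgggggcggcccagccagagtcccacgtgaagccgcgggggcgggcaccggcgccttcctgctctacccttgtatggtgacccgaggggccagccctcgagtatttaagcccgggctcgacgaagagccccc
Dusp5: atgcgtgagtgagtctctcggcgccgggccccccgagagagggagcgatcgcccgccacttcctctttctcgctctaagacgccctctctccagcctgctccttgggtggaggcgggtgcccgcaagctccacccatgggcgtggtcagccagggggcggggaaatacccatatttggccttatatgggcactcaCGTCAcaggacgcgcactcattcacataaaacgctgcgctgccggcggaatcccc

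The Dusp1 window held 3 matches of TGACG, whose leftmost bases lie 191, 143 and 140 bases before the start. The last 2 overlap and form the full palindrome TGACGTCA. Dusp5 had 1 match, on the reverse strand, with its leftmost base 55 bases before the start, and Dusp2 had 0. Of all 32851 promoter windows of this length 17.8% held TGACG and 1.55% held TGACGTCA. Among the 8 members, 4 held TGACG (Dusp1, Dusp5, Dusp8 and Dusp16) and 2 held TGACGTCA (Dusp1 and Dusp8). For Dusp8 the bases just after the RefSeq start were found in none of its GENCODE transcripts, unlike for the other 7 members, so its window may not be that of the transcript measured. The AP-1 motif TGANTCA, held by 6.75% of windows, and the Ets-type motif CCGGAA, held by 12.0%, were found in 0 of the 8 members on either strand. The shorter Ets core GGAA and the motifs of other factors, SRF among them, were not searched, so these windows may hold them. The E-box CACGTG was found in 2 members, Dusp1 and Dusp2, and in 6.02% of windows. GGGCGG, the GC box, was found in 6 members, all but Dusp6 and Dusp7, and in 32.7% of windows. Each of these motifs but TGANTCA holds a CpG, and the members' windows held a median of 23 CpG beside 6 over all windows. The shares of windows were not matched for CpG, so they do not tell an excess of a motif from an excess of CpG. These matches are letters in a window and show neither binding nor its absence.

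CpG is the dinucleotide at which cytosine is methylated in mammals and on which TET enzymes act. All 8 windows held more CpG than the median window, but the windows compared were not limited to expressed genes. The members held between 16 and 34 CpG in 250 bases with a median of 23, beside a median of 6 over all windows. Dusp7 held the most, 34, more than 96.5% of all windows, and Dusp6 the fewest, 16, more than 74.6%. Dusp1 held 28 CpG, Dusp5 held 21 and Dusp2 held 19. Dusp1 and Dusp6, the 2 genes of these 8 windows with a ratio above 0, lay at 28 and 16. A link between CpG number and ratio was not tested, and Dusp4 has no window here. G and C made up 56.4% (Dusp6) to 77.2% (Dusp7) of the windows, beside a median of 52.4%. DNA methylation at these windows was not analysed here.

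Levels within the family were compared per length, as the mean normalized count over both conditions per kb of the longest GENCODE M21 transcript. Dusp1 was the most abundant at 3879 per kb, followed by Dusp6 at 1359 and Dusp4 at 1313. Dusp7 had 779 per kb, Dusp10 528, Dusp5 471, Dusp16 393 and Dusp8 269. The lowest were Dusp9 at 149 and Dusp2 at 48.0 per kb. Both the highest and the lowest level thus belonged to inducible nuclear genes. Because no replicate gives a spread for a level, neighbours in this order, such as Dusp6 and Dusp4, cannot be ranked beyond error.

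**Figure D1:**
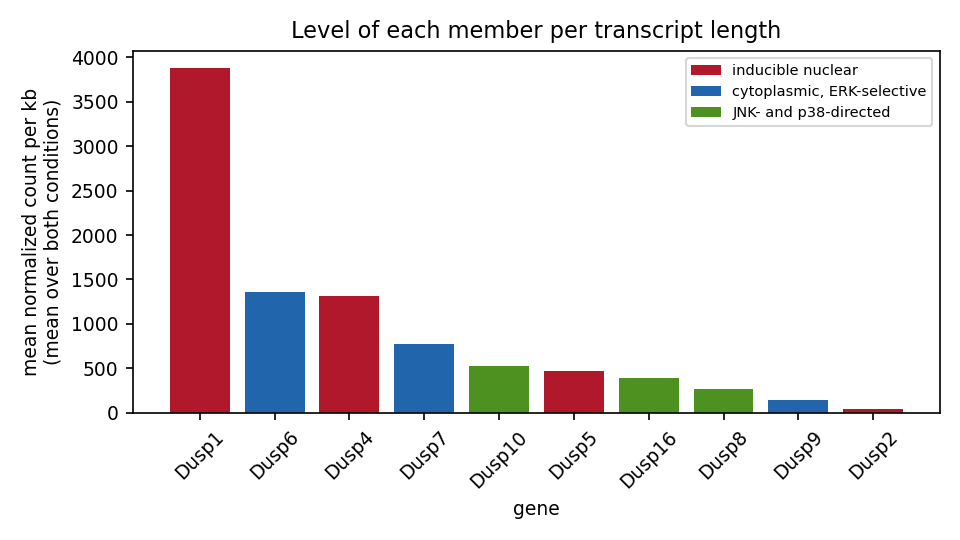
Bars give the mean normalized count over both conditions per kb of transcript (vertical axis, linear and starting at 0) for each of the 10 genes, ordered by level and coloured by group. Dusp1 stands at 3879 per kb and Dusp2, the lowest, at 48.0 per kb. There is 1 value per gene and so no error bar.

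Dusp4, a nuclear phosphatase of ERK and JNK, was the gene of the family that passed. In the authors' deposited table its mean normalized count was 3597 and it rose 13.7-fold in condition B, a log2 ratio of 3.78 (raw p = 1.13e-07, adjusted p = 3.05e-05). Among all genes, 1.42% of the 17339 genes with a p-value passed with a higher value in condition B and 0.871% with a lower one. These 17339 genes include some under the minimum mean. Of the 12401 genes at the minimum mean, 98.7% had a lower log2 ratio than Dusp4. Of 4620 genes with a mean within 2-fold of that of Dusp4, 0.563% had a ratio as large in size.

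Dusp1, the founding member, acts on p38 and JNK as well as ERK and is an immediate early gene of serum-stimulated fibroblasts. Its mean of 8973 was the highest of the family, and the authors' deposited table gives a 3.28-fold higher level in condition B, a log2 ratio of 1.71, without passing (raw p = 0.00699, adjusted p = 0.220). Of 2901 genes with a mean within 2-fold of that of Dusp1, 2.31% had a ratio as large in size. In the GENCODE annotation its exons overlap those of Ergic1, a gene of transport between the endoplasmic reticulum and Golgi, on the opposite strand. The authors' deposited table lists Ergic1 at a mean of 17390 and a log2 ratio of 0.75. The library kit does not mark strand, so reads from shared bases cannot be told apart, and the part of Ergic1 in the value of Dusp1 was not tested.

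Dusp2, a nuclear phosphatase best known from activated lymphocytes, had the largest ratio in size of the family on the smallest mean. By the authors' deposited table its mean was 77.6 and it was 28.4-fold lower in condition B, a log2 ratio of -4.83, without passing (raw p = 0.0117, adjusted p = 0.309). Large ratios are more common at such means: of 1035 genes at the minimum mean and within 2-fold of the mean of Dusp2, 5.12% had a ratio as large in size, against 0.563% for Dusp4 at its own mean. Dusp2 was the 1 member with a mean under 200, and no counting interval was computed for it. Of 9 leukocyte markers, 4 had means close to or above that of Dusp2 in the authors' deposited table: Cd14 at 154, Lyz2 at 94.7, Csf1r at 64.1 and Cd68 at 59.6, with log2 ratios of -1.95, 3.84, 1.05 and 0.18. The others had means of 3.53 for Ptprc (the pan-leukocyte marker CD45), 2.003 for Itgam and 1.05 for Aif1, and Cd3e and Emr1 are listed at 0 in the authors' deposited table. The part of leukocyte RNA in the value of Dusp2 was not tested.

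Dusp5 is a nuclear phosphatase specific for ERK. The authors' deposited table lists it at a mean of 1164 and 2.46-fold lower in condition B, a log2 ratio of -1.30, without passing (raw p = 0.0687, adjusted p = 0.952). Ratios of this size were common among genes of like mean, at 11.6% of 3797 genes. Its exons overlap an unnamed antisense gene in GENCODE, for which the table has no row. Dusp4 and Dusp5, both nuclear, thus had ratios of opposite sign between the same 2 libraries, of which that of Dusp5 did not pass. Why the signs differ was not tested.

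**Figure D2:**
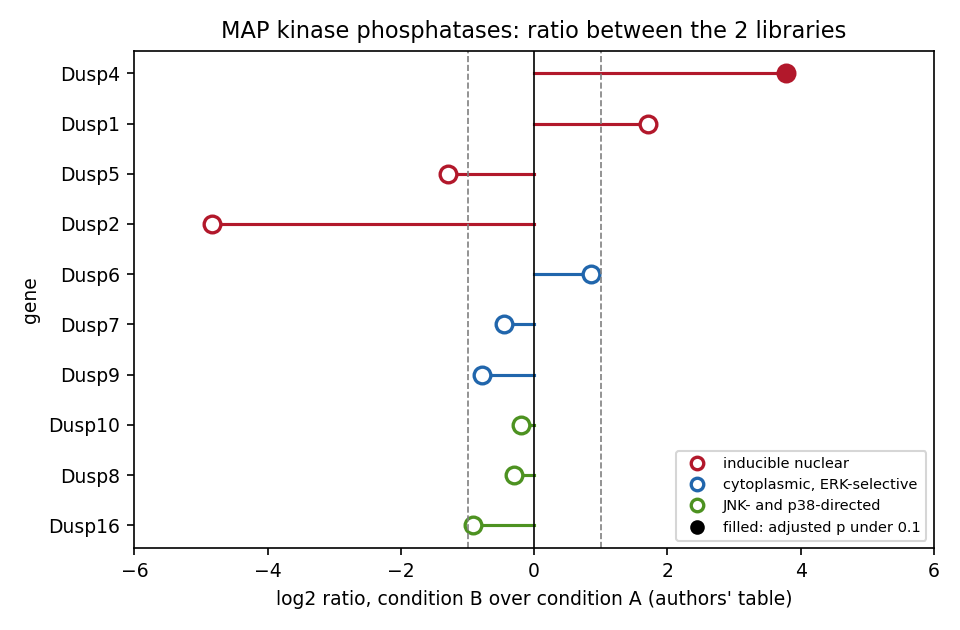
Points give the log2 ratio of condition B over condition A (horizontal axis) for each gene (vertical axis), grouped and coloured by location and substrate. Dashed lines mark the size rule at -1 and 1, and the filled point is Dusp4, the gene with an adjusted p under 0.1. The 4 inducible nuclear genes lie outside the dashed lines on both sides, between -4.83 and 3.78, and the other 6 lie inside.

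The 3 cytoplasmic ERK phosphatases stayed within the size rule. Dusp6, the main cytoplasmic brake on ERK and a common readout of ERK activity, had a mean of 3801 and a log2 ratio of 0.85, a 1.80-fold higher level in condition B by the authors' deposited table (raw p = 0.185, adjusted p = 1). For Dusp7, its close relative, the same table lists a mean of 2502, a log2 ratio of -0.45 and a DESeq adjusted p of 1. Dusp9, known for its role in the placenta and X-linked in the mouse, stands in the authors' deposited table at a mean of 406 and a log2 ratio of -0.78. Dusp6 was the member of this group with a ratio above 0, and 11.7% of 4563 genes of like mean had a ratio as large in size.

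The 3 phosphatases directed at JNK and p38 all had log2 ratios below 0 and within the size rule. Dusp16, a JNK phosphatase, had the largest in size, -0.93 at a mean of 2006 in the authors' deposited table (raw p = 0.166), just inside the threshold of 1. The authors' deposited table puts Dusp8, which also acts on JNK and p38, at a log2 ratio of -0.30 and a mean of 1292. Dusp10, a p38 and JNK phosphatase, stands there at -0.19 with a mean of 1473. Exons of Dusp8 overlap those of an opposite-strand gene of GENCODE, Gm32786, for which the table has no row. For Dusp10, 69.0% of 4143 genes of like mean had a ratio as large in size. All 6 cytoplasmic and JNK- or p38-directed genes had an adjusted p of 1. Over the whole family 3 of 10 genes (Dusp1, Dusp2 and Dusp4) had a raw p under 0.05, beside 6.28% of all genes with a p-value. That share includes genes under the minimum mean, where the members have none, so it is not matched for mean.

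**Figure D3:**
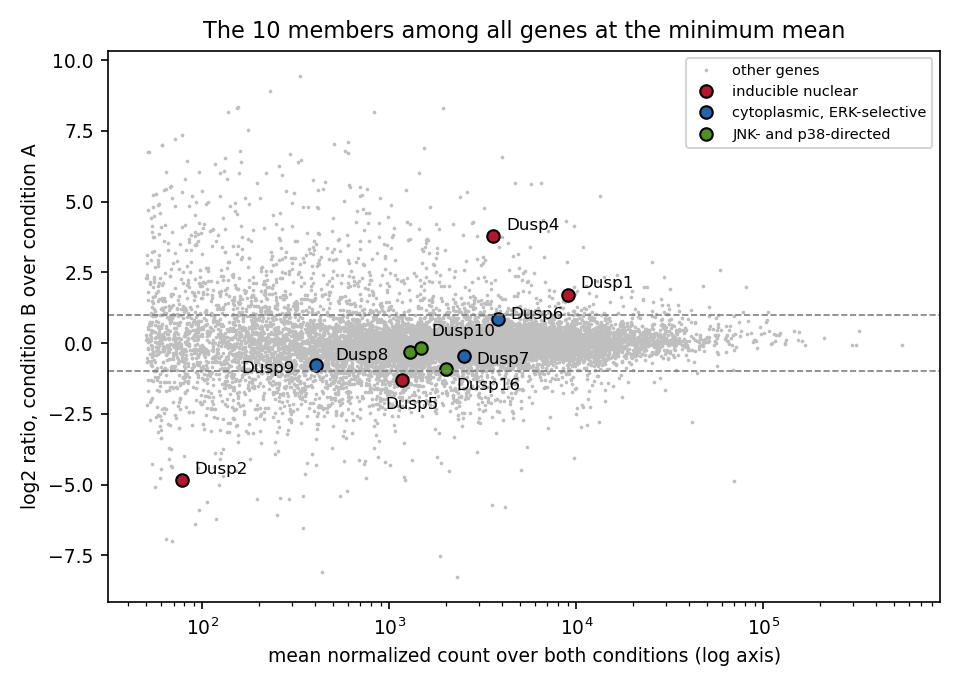
Each grey point is a gene with a finite ratio and a mean of at least 50 normalized counts, with its mean over both conditions (horizontal log axis) and its log2 ratio of condition B over condition A (vertical axis). Coloured points are the 10 members, and dashed lines mark the size rule. The grey points spread more at low means, where Dusp2 lies (mean of 77.6), than at the mean of 3597, where Dusp4 stands above nearly all of them.

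The rest of the MAP kinase system was read from 8 lists with 138 distinct genes, 129 of them at the minimum mean. Of these 129, 9 were higher and 10 lower in condition B under the size rule, and their median log2 ratio was -0.04, as was that of all genes. The counts of each list below are to be read beside the 8.31% of all genes that were higher and the 9.60% that were lower. Of 23 genes of the ERK cascade itself, which include the Ras proteins, the Raf and MEK kinases and the ERKs, 0 met the size rule and 0 had an adjusted p under 0.1, and their median log2 ratio was -0.01. In the JNK and p38 cascade 0 of 19 genes were higher and 3 were lower in condition B, with a median of -0.08 and 0 that passed. These 3 were Mapk12 (p38 gamma) at a log2 ratio of -1.94, the kinase gene Map3k1 at -1.62 and Mapk11 (p38 beta) at -1.16 in the authors' deposited table. Among 10 kinases that MAP kinases activate, 1 met the size rule and 0 had an adjusted p under 0.1. The authors' deposited table gives this gene, Rps6ka1 (the ERK-activated kinase RSK1), a log2 ratio of -1.88, and the median of the list was -0.31.

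Other feedback inhibitors of receptor and Ras signalling were mixed, 2 of 15 being higher and 1 lower in condition B, and their median log2 ratio was 0.15. Spry1, a Sprouty protein that restrains Ras activation downstream of growth factor receptors, rose 8.48-fold in condition B by the authors' deposited table at a mean of 4594 (adjusted p = 0.000855) and was the gene of the list that passed. Its relatives Spry4 and Spry3 stand at log2 ratios of 1.42 and -1.48 in that deposited table of the authors, without passing.

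Transcripts known to follow ERK activity went both ways, 4 of 27 higher and 3 lower in condition B, with a median of -0.07. Fosb and Fos, immediate early subunits of AP-1, passed, at 8.17-fold and 3.997-fold higher levels by the authors' deposited table (adjusted p of 0.000885 and 0.0827). A log2 ratio of 1.62 is listed in the authors' deposited table for the Ets factor gene Etv1 (adjusted p = 0.768). The immediate early factor gene Egr3 and the EGF-family ligand genes Ereg and Areg had log2 ratios of -1.93, -1.26 and -1.23 there, and did not pass either. Etv4 and Etv5, chosen for mention after their values were seen, lay at -0.19 and -0.21 on the log2 scale of the authors' deposited table. ERK activity itself was not tested. In the list of AP-1, CREB and SRF factors, which shares Fos, Fosb, Fosl1 and Junb with the list above, 3 of 21 genes were higher and 1 lower, with a median of 0.03. Besides Fosb and Fos these were Atf3 at 1.07 and Ets2 at -1.83 in the authors' deposited table, and neither of these passed.

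Atypical dual-specificity phosphatases, relatives that lack the MAP kinase docking domain, held 1 higher and 1 lower gene of 11, with a median of 0.11. Dusp15 rose 10.4-fold in condition B in the authors' table as deposited, at a mean of 264 (adjusted p = 0.0795), and Dusp27 lay at a log2 ratio of -1.98 without passing. Of 7 other genes of phosphatases or phosphatase-like proteins that act on or bind MAP kinases, 1 met the size rule and 0 passed, with a median of 0.13. This gene, Ptpn7, a tyrosine phosphatase of blood cells, is listed in the authors' deposited table with a log2 ratio of 4.91 on a mean of 58.8 (adjusted p = 0.523).

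**Figure D4:**
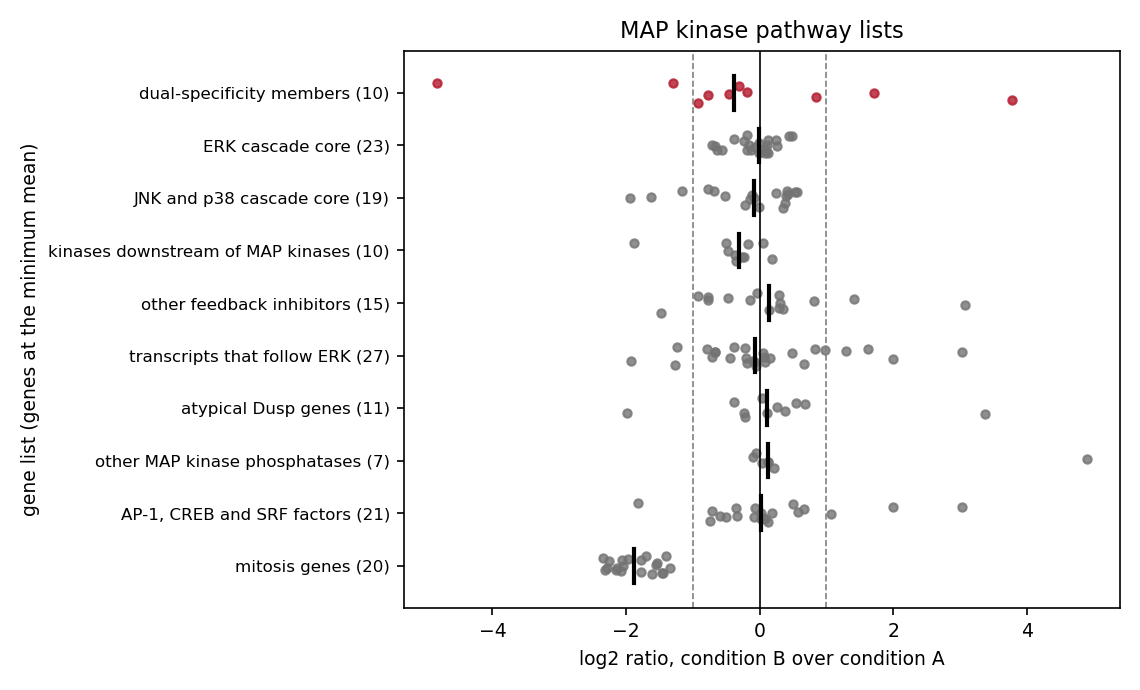
Each point is a gene, placed by its log2 ratio of condition B over condition A (horizontal axis) within its list (vertical axis, with the number of genes at the minimum mean in brackets). Black bars are medians, dashed lines the size rule and red points the 10 members. The ERK cascade genes lie within the dashed lines, the members spread between -4.83 and 3.78, and the 20 mitosis genes lie below -1.

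The 2 libraries differed in more than this pathway. All 20 mitosis genes met the size rule, with lower values in condition B. Their median log2 ratio was -1.88, and 8 of them passed. The largest were the spindle and kinetochore genes Kif11 and Cenpf, at -2.35 and -2.32, and the mitotic kinase gene Pbk at -2.29 in the authors' deposited table. Of 12 fibroblast markers 6 were higher in condition B and 0 lower, and 5 passed. The largest ratios were those of the matrix proteoglycan genes Dcn at 5.66 and Lum at 3.29 and the surface marker gene Thy1 at 2.88 in the authors' deposited table. The other 6 did not meet the size rule and ran between Col1a1 at -0.08 and Pdgfrb at 0.66. They included Fn1, the marker of highest mean, at -0.06. The part of cell division or of fibroblast state in the ratios of the phosphatases was not tested.

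Fibroblast identity was read from the same markers, whose means sum to 1522180. The 8 epithelial markers sum to 1302, most of it Krt19 at 1146, and Epcam was at 4.37 and Cdh1 at 21.3 in the authors' deposited table. The leukocyte markers sum to 379 over 9 genes, with 2 listed at 0, the 7 endothelial markers to 653 with 1 listed at 0, and the 6 pluripotency markers to 46.4 with 2 listed at 0. Neural and glial markers sum to 26145, of which Nes, also expressed by cultured fibroblasts, made up 16350. Markers of these other cell types that met the size rule were mostly of low mean and included Krt18 (log2 ratio -2.29), Lyz2 (3.84), Csf1r (1.05), Cd14 (-1.95), Emcn (6.06), Kdr (2.78) and Tek (1.21) in the authors' deposited table. Of these the endothelial gene Emcn passed by the authors' DESeq test (adjusted p = 0.0638), at a mean of 96.3. The other endothelial markers lay below the minimum mean and went both ways. Pecam1 had a mean of 9.80 and a log2 ratio of 2.06, and Cdh5 a mean of 8.43 and one of -0.36. Tie1 was lower in condition B at a mean of 0.474, and Cldn5 is listed at 0 in the authors' deposited table. The part of these other cell types in the phosphatase ratios was not tested.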

How the data were processed

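RNA was taken from frozen pellets with TRIzol and made into TruSeq v2 libraries, per the labels' protocols, with 1 library per genotype. TopHat2 2.0 and DESeq are the tools, and mm9 the genome build, that the submitters' processing notes name. Which counter, gene annotation and DESeq settings were used was not given in the sources used here. Per the file headers, the deposited table gives for each gene a signal (the size-factor-normalized count of the gene, averaged over both conditions), a ratio or fold, its log2, and raw and adjusted p-values, all from the authors. The log2 is that of the fold with no pseudocount. The names of 2 further columns, 1 per condition, match no sample label, and these were not used, so library depth and counting intervals were not computed.

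The size rule, medians and shares were computed with pandas 2.3.3 over 12401 genes at a mean of at least 50. The code of the rule was run on simulated counts with counting noise only. That run held no variation between cultures, so it cannot show how often such ratios arise between 2 real libraries. No test across samples was possible. Named genes are the 10 members, Tet1, Tet2, Tet3, and up to 3 genes in each direction that met the size rule in each list, and others are said to be chosen after their values were seen or serve as markers. Not every gene that this rule takes is reported here. The members and lists were chosen with earlier results of these data known. Transcript lengths and exon overlaps come from GENCODE M21, and promoters from RefSeq, both on GRCm38, used for names, lengths and sequence. Alternatives were minimum means of 10, 200 and none, size rules of 2 on the log2 scale or 1.5-fold, centring on the median or on the mean with 30% trimmed at each end, and an adjusted p under 0.05 or raw p under 0.05.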

Additional observations from a re-analysis of the deposited data

How the results depend on the processing

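Centring ratios on the median or on the trimmed mean of all genes (shifts of -0.04 each on the log2 scale) left each member on its side of the size rule and in its direction. The count of members lower in condition B was 1 with a minimum mean of 200, which leaves out Dusp2. With the size rule at a log2 ratio of 2, 1 member was higher (Dusp4) and 1 lower (Dusp2) in condition B. With at least 1.5-fold 3 were higher and 4 lower. Those added at 1.5-fold, Dusp6, Dusp9 and Dusp16, are not inducible nuclear genes, so that threshold does not set this group apart. At a raw p under 0.05, 3 members were called in place of 1, and Dusp4 was called at an adjusted p under 0.05. Over the 8 MAP kinase lists and the mitosis list together the counts of 9 higher and 30 lower, of which 20 lower are mitosis genes, became 4 and 9 at a log2 ratio of at least 2 and 14 and 45 at 1.5-fold. Without the mitosis list they were 9 and 10, 4 and 0, and 14 and 25. The median of the members moved by less than 0.1 under the minimum means and both centrings. No paired analysis was possible because each genotype has 1 library. Leaving out a library was likewise not possible.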
